A study of Homo sapiens with 6 samples.

Results

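Expression of 9 genes of RNA sensing and the interferon response was examined in the human colorectal cancer line HCT116 after transfection of siRNAs against the long noncoding RNA LINC01534. The 9 genes were the RNA sensors IFIH1 and DDX58, the interferon-stimulated genes IFIT2, IFIT3, OASL, OAS3, ISG15 and USP18, and the transcription factor gene IRF1. They were matched by symbol among the 26255 genes listed, and all 9 were among the 12203 genes tested, whose FPKM averaged 1 or more over the 6 libraries. They were selected on their FPKM in the siLINC01534 libraries against the parent libraries, so that their values against parent are given here as a description and with no test. The question of the comparison was whether cells given the siRNAs differed from parent cells in genes that answer foreign RNA.

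The RNA-seq data comprised 6 libraries of poly(A) RNA in 3 groups of 2, namely parent HCT116 cells, HCT116 cells given siLINC01534-1 and HCT116 cells given siLINC01534-2. The labels give no other treatment or genetic change for any group, and the time between transfection and harvest is not given in the sources used here for these libraries. The parent cells were the control and were not described as transfected, and libraries of cells given a negative control siRNA were not analysed here, so transfection itself and a loss of LINC01534 cannot be told apart as the source of a difference from parent. Nothing in the labels says whether the libraries of a group came from separate cultures, so p-values measure only the spread between these libraries, which may be technical.

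Double-stranded RNA in the cytoplasm is bound by the sensors MDA5 and RIG-I, which are encoded by IFIH1 and DDX58 and signal through MAVS at the mitochondria to the transcription factor IRF3. The interferons that follow act on surface receptors, and the STAT and IRF factors below these receptors switch on interferon-stimulated genes, among them the sensors themselves. Several of these genes hold the interferon-stimulated response element (ISRE) in their promoters, a repeat of GAAA, while IRF1 is known to be switched on through a gamma-activated site (GAS).

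The promoters were looked at first, since the members are grouped here as interferon-stimulated genes. Promoters of 6 of the 9 members (IFIH1, DDX58, IFIT3, OAS3, ISG15 and IRF1) were found in RefSeq on GRCh38.p14, from 250 bases before to 50 bases after the start of transcription, and IFIT3 had 2 starts. The stretches around the motif are shown 5′ to 3′ on the strand of the gene, with the letters of the motif in capitals, because they hold the motifs compared between the members.
IFIH1: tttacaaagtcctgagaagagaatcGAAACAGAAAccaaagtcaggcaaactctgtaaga
DDX58: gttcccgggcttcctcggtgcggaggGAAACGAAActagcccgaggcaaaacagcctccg
IFIT3 (start 2): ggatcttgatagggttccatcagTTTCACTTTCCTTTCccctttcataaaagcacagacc
OAS3: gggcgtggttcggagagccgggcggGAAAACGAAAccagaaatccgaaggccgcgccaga
ISG15: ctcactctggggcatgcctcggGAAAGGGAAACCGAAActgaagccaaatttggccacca
IRF1: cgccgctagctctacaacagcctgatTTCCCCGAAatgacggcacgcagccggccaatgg
The IFIH1 stretch lies at chr2:162318671-162318730 on the minus strand and the DDX58 stretch at chr9:32526366-32526425 on the minus strand. That of IFIT3 lies at chr10:89332455-89332514 on the plus strand and that of OAS3 at chr12:112938437-112938496 on the plus strand. For ISG15 the position is chr1:1013362-1013421 on the plus strand, and for IRF1 it is chr5:132490864-132490923 on the minus strand.

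The repeat GAAANNGAAA, searched on both strands as an ISRE-like motif, was present in the promoters of IFIH1, IFIT3, OAS3 and ISG15, 4 of the 6 members with a promoter. Among the interferon-stimulated genes of the lists other than members, 27 of 41 promoters (65.9%) held it, against 341 of 9576 promoters of tested genes (3.56%) and 1195 of all 27305 promoters (4.38%). Of the list genes that act upstream of interferon or regulate it, 9 of 52 (17.3%) held it. The same repeat with a spacer of 1 base, GAAANGAAA, was present in 3 of the 6 members (DDX58, IFIT3 and OAS3) and in 3.16% of the tested promoters and 3.87% of all promoters. Its share was 31.7% in the other interferon-stimulated genes and 5.77% in the upstream and regulating genes. The GAS-like palindrome TTCNNNGAA was found in IRF1 alone among the 6, and in 24.4% of the other interferon-stimulated genes, 23.1% of the upstream and regulating genes, 8.18% of the tested promoters and 9.38% of all promoters. A match describes letters in this window and is not a measured binding site. The motifs were chosen after promoter sequences were seen, so the shares of the members are a description only.

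Counted from the start of transcription at 0, the ISRE-like motif of IFIH1 lay at -21 to -12, and a pair of overlapping matches on the other strand spanned -159 to -144. DDX58 had only the repeat with the 1-base spacer, at -203 to -195. In IFIT3 the motif was present before both starts, at -156 to -147 and -122 to -113 of the first and at -94 to -85 and -51 to -42 of the second, where it overlapped the repeat with the 1-base spacer. OAS3 held it at -143 to -134 and at -12 to -3, and ISG15 held overlapping matches from -113 to -98. The GAS-like match of IRF1 lay at -124 to -116.

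**Figure D1:**
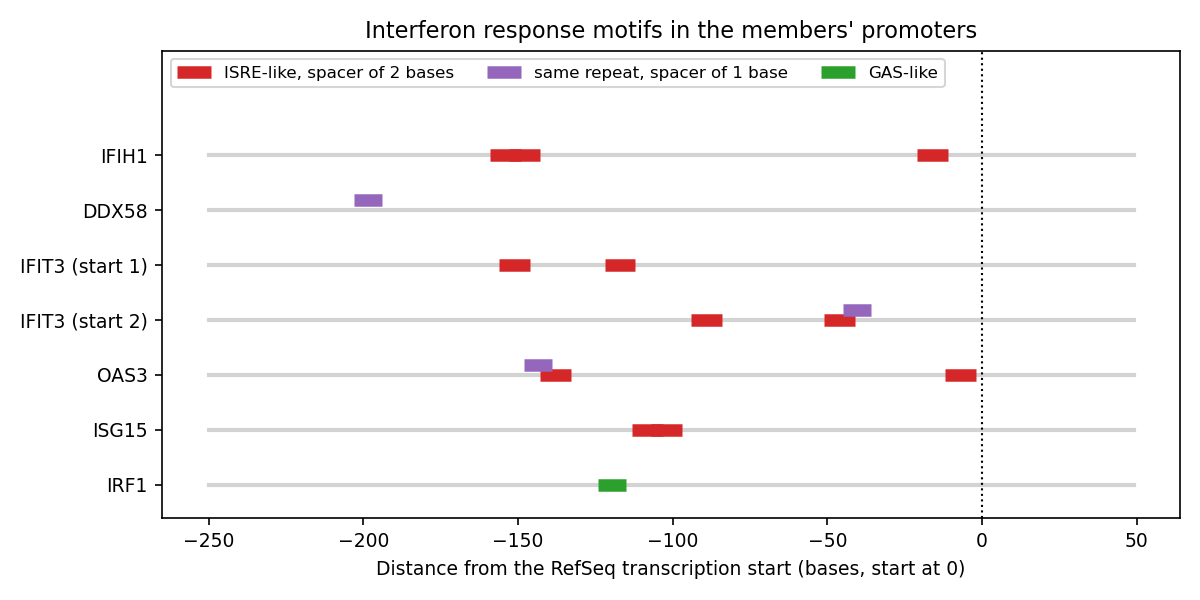
Positions of interferon response motifs in the promoters of the 6 members with a RefSeq promoter, as distance in bases from the start of transcription at 0; grey lines are the windows searched, from 250 bases before to 50 after the start, and colored blocks are matches. IFIH1, IFIT3, OAS3 and ISG15 hold the ISRE-like repeat, DDX58 only the repeat with the 1-base spacer, and IRF1 the GAS-like match.

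The files hold no read counts, and the depth was estimated from low FPKM values at between 8700000 and 10000000 reads a library. Between 16513 and 16903 genes had an FPKM above 0. The targeted RNA, LINC01534, had an FPKM of 0.285 and 0.571 in parent cells, 0 and 0.283 with siLINC01534-1, and 0.660 and 0.551 with siLINC01534-2. The libraries labelled siLINC01534-2 therefore showed no lower LINC01534 than parent, and the values were too low for a difference to be detectable at this depth. The groups are named by their labels. Of 8 markers of colorectal epithelial cells, 6 reached 1 FPKM, with EPCAM between 199 and 204 FPKM, whereas VIL1 and LGALS4 stayed below 0.37. Parent sums of the 8 ranged from 3458 to 3523 FPKM. The siLINC01534-1 sums were lower, from 2927 to 2932, and KRT8, KRT18 and KRT19 lay below both parent libraries there. For siLINC01534-2 the range was 3336 to 3521. In those libraries KRT19, CDH1 and CDX2 lay above both parent libraries and KRT18 lay below both. Markers of blood and immune cells, which make and answer interferon, were near 0 for 5 of 7, with CD3E and LILRA4 listed at 0 in all libraries and PTPRC at up to 0.024 FPKM. Their summed FPKM, almost all of it CD68 and LYZ, was 3.59 to 4.70 in parent cells, 4.61 to 5.27 with siLINC01534-1 and 7.40 to 8.13 with siLINC01534-2. The fibroblast markers, of which only COL1A1 reached 1 FPKM, summed to between 3.07 and 3.08, 5.30 and 5.98, and 3.81 and 4.29 FPKM, respectively, and the 3 endothelial markers stayed below 0.11 in sum. The part of these sums in the results was not tested. In bulk libraries, fewer cells with an RNA and less of that RNA per cell cannot be told apart.

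In the parent cells, ISG15 stood highest of the 9 by a wide margin, with a mean of 131.3 FPKM, a measure already divided by transcript length. OAS3 followed at 17.6 FPKM, then IRF1 at 6.92, USP18 at 4.71, DDX58 at 3.59, IFIH1 at 2.19, OASL at 1.51, IFIT3 at 1.13 and IFIT2 at 0.783. Only the last pair, IFIT3 and IFIT2, overlapped between neighbors. Over the 6 libraries ISG15 lay above 94.6% of the tested genes, OAS3 above 58.0% and IRF1 above 37.3%. The other 6 lay in the lower part, from USP18 (above 20.7% of the tested genes) to IFIT3 (above 5.16%). With siLINC01534-1 the order changed, with USP18 in place 7, IFIT2 above it in place 6, and IFIH1 and DDX58 overlapping in places 4 and 5. With siLINC01534-2 the first 7 genes stood in the order seen in parent, with DDX58 and IFIH1 overlapping.

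In 6 of the 9 members (IFIH1, DDX58, IFIT2, IFIT3, OASL and IRF1) all 4 siLINC01534 libraries lay above both parent libraries. The background for this pattern was 19.0% of the tested genes in the higher direction, and 19.3% in the lower direction, which 0 members showed. As the members were selected on these values, nothing is read from the count. Only IFIT2 was more than 2-fold higher in mean FPKM with both siRNAs together, where 1.51% of the tested genes were more than 2-fold higher and 0.688% more than 2-fold lower. The median difference of the 9 members on the log2(FPKM + 1) scale was 0.28 for the average of both siRNAs against parent, 0.13 for siLINC01534-1 and 0.28 for siLINC01534-2. The medians over all tested genes were -0.0068, 0.00031 and 0.0018. Both comparisons used the same 2 parent libraries.

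**Figure D2:**
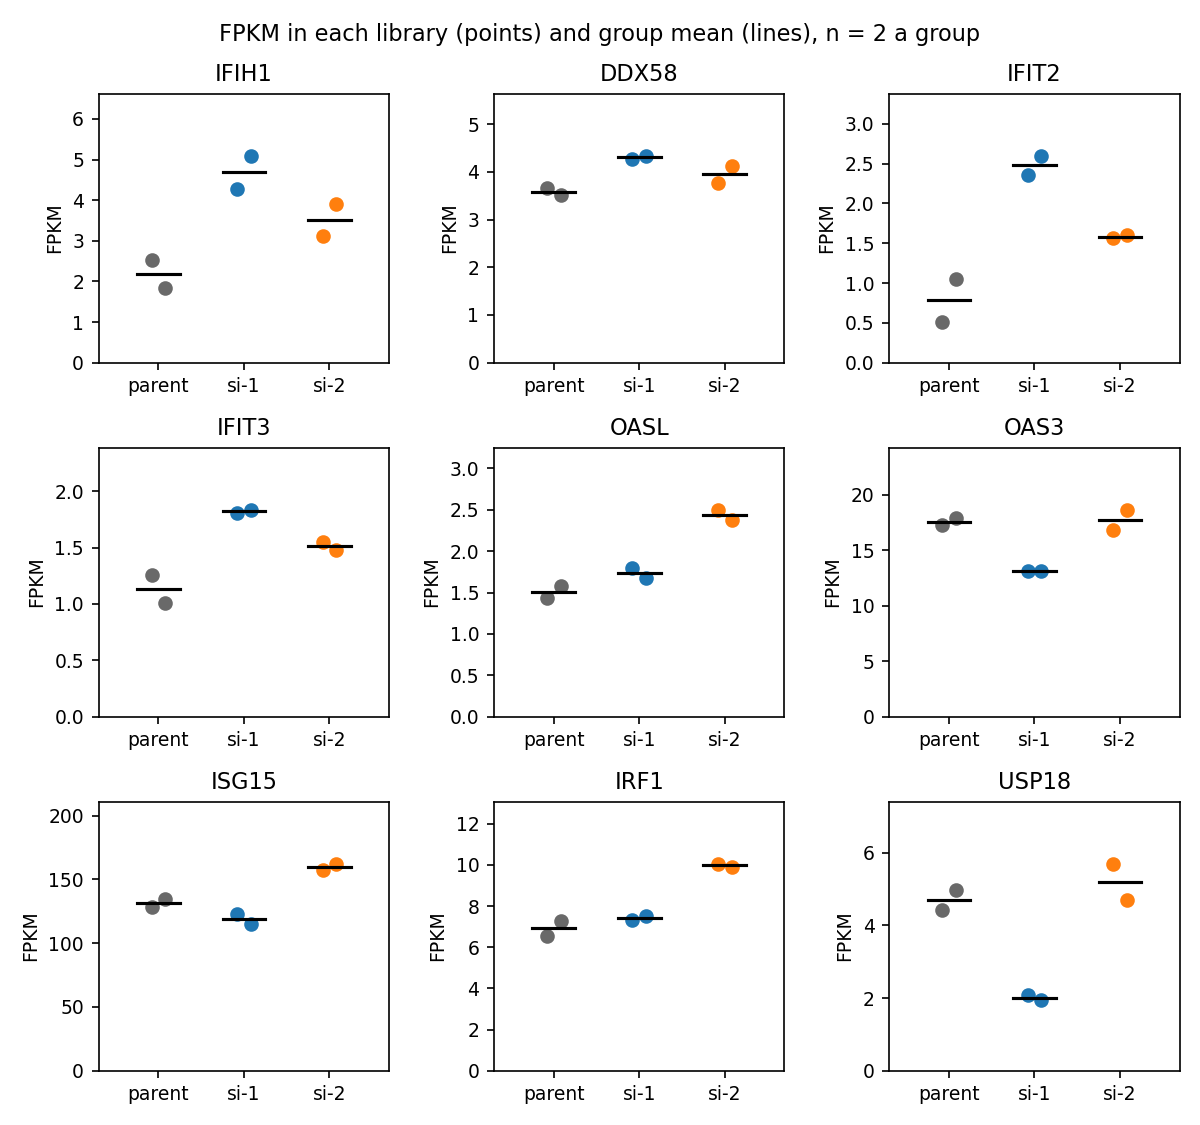
FPKM of the 9 members in each library (points, 2 a group) with the group mean (lines), on linear axes that start at 0; si-1 and si-2 stand for siLINC01534-1 and siLINC01534-2. IFIH1, DDX58, IFIT2 and IFIT3 are highest with siLINC01534-1, while OASL, ISG15 and IRF1 are highest with siLINC01534-2 and USP18 falls below both other groups with siLINC01534-1.

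IFIH1 encodes MDA5, the sensor of long double-stranded RNA. On GRCh37 it lies on chromosome 2 from 163123584 to 163175194 on the minus strand, and its canonical transcript has 16 exons and 3581 nt. The FPKM of IFIH1 was 2.53 and 1.84 in the parent libraries, 4.27 and 5.10 with siLINC01534-1, and 3.11 and 3.92 with siLINC01534-2. Every siRNA library lay above both parent libraries, and the siLINC01534-1 libraries lay highest. The group means were 2.19 ± 0.490, 4.68 ± 0.586 and 3.51 ± 0.572 FPKM (SD, n = 2), which made the ratio to parent 2.14 with siLINC01534-1 and 1.61 with siLINC01534-2. These values rest on an estimated 62 to 170 reads a library.

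DDX58, now named RIGI, encodes RIG-I, the sensor of RNA with a triphosphate at its end. It lies on chromosome 9 from 32455300 to 32526206 on the minus strand, with 18 exons and 4628 nt in the canonical transcript. FPKM values of DDX58 were 3.67 and 3.51 in parent cells, 4.27 and 4.34 with siLINC01534-1, and 3.78 and 4.12 with siLINC01534-2. The siRNA libraries lay above parent without overlap, but the ratios were small, 1.20 with siLINC01534-1 and 1.10 with siLINC01534-2. An overlapping gene on the same strand, ENSG00000288684, shares 96.6% of the 75-base stretches of this transcript, so the reads of the pair may have been split by the counting, and the value of DDX58 is uncertain.

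Some of the IFIT proteins bind foreign RNA that lacks the marks of the cell's own mRNA and block its translation. IFIT2 lies on chromosome 10 from 91043451 to 91069028, plus strand, with 2 exons and 3393 nt in its canonical transcript, and IFIT3 lies beside it from 91087064 to 91137230, plus strand, with 2 exons and 2390 nt. IFIT2 was measured at 0.511 and 1.05 FPKM in parent cells, at 2.36 and 2.60 with siLINC01534-1, and at 1.57 and 1.60 with siLINC01534-2. The siLINC01534-1 libraries were highest, the siLINC01534-2 libraries between, and the parent libraries lowest, with no overlap. Against the parent mean of 0.783 ± 0.385 FPKM (SD, n = 2) the ratio was 3.17 with siLINC01534-1 and 2.02 with siLINC01534-2. The higher parent library lay about as far above the lower as below the siLINC01534-2 libraries, at an estimated 16 and 34 reads for parent, and the ratio of both siRNAs to parent, 2.59, became 1.93 without parent replicate 1 and 3.98 without parent replicate 2.

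IFIT3, which forms a complex with other IFIT proteins, was at 1.26 and 1.01 FPKM in parent cells, 1.81 and 1.84 with siLINC01534-1, and 1.55 and 1.48 with siLINC01534-2. It showed the order of IFIT2 on a smaller scale, and the groups did not overlap. The ratio to parent was 1.61 with siLINC01534-1 and 1.34 with siLINC01534-2, at an estimated 22 to 40 reads a library.

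The OAS enzymes make oligoadenylates that switch on RNase L when they bind double-stranded RNA, while OASL lacks this activity and binds RIG-I. OASL lies on chromosome 12 from 121455566 to 121477049 on the minus strand (6 exons, 3270 nt), and OAS3 lies on the same chromosome from 113375856 to 113414265 on the plus strand (16 exons, 6599 nt). OASL had an FPKM of 1.43 and 1.58 in parent cells, 1.79 and 1.68 with siLINC01534-1, and 2.50 and 2.37 with siLINC01534-2. Its siLINC01534-2 libraries lay highest and the siLINC01534-1 libraries just above parent, with ratios of 1.62 and 1.15. OAS3 was at 17.3 and 17.9 FPKM in parent cells, 13.2 and 13.1 with siLINC01534-1, and 16.9 and 18.7 with siLINC01534-2. Thus it was lower with siLINC01534-1, at 0.747 of the parent mean, while the siLINC01534-2 libraries enclosed the parent libraries (ratio 1.01). OAS3 is the longest and, with an estimated 750 to 1200 reads, the best covered of the 9.

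ISG15 encodes a ubiquitin-like protein that is joined to other proteins, and USP18 encodes the protease that takes it off again and also dampens signaling at the interferon receptor. ISG15 lies on chromosome 1 from 936518 to 949920 on the plus strand, with 2 exons and a short canonical transcript of 637 nt, and USP18 on chromosome 22 from 18632885 to 18660164 on the plus strand, with 11 exons and 1858 nt. ISG15 was at 128.3 and 134.3 FPKM in parent cells, 122.6 and 114.8 with siLINC01534-1, and 157.1 and 162.3 with siLINC01534-2. It lay below parent with siLINC01534-1 (ratio 0.904) and above parent with siLINC01534-2 (ratio 1.22), without overlap in either case.

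USP18 was at 4.43 and 4.99 FPKM in parent cells, 2.09 and 1.94 with siLINC01534-1, and 5.70 and 4.71 with siLINC01534-2. The siLINC01534-1 libraries stood apart, at 0.427 of the parent mean, and the siLINC01534-2 libraries overlapped parent. This was the widest departure from parent in the lower direction among the 9 members. In the canonical transcript, 21.1% of the 75-base stretches are shared with USP41 and ENSG00000290950, so some reads may belong to those copies.

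IRF1 encodes a transcription factor that binds ISRE-like sequences and is itself induced by interferon gamma. It lies on chromosome 5 from 131776132 to 131844411 on the minus strand, with 10 exons and 3554 nt in the canonical transcript. IRF1 was at 6.55 and 7.28 FPKM in parent cells, 7.31 and 7.52 with siLINC01534-1, and 10.1 and 9.91 with siLINC01534-2. The siLINC01534-2 libraries lay clearly above the rest (ratio 1.44), whereas the siLINC01534-1 libraries were just above parent replicate 2 (ratio 1.07). The antisense gene IRF1-AS1 overlaps 16.3% of the transcript, and whether the counting used strand is not stated in the sources used here.

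With siLINC01534-1 alone, 6 members lay above both parent libraries and OAS3, ISG15 and USP18 lay below both, patterns shown by 37.5% and 38.3% of the tested genes. With siLINC01534-2 alone, 7 members lay above both parent libraries, ISG15 among them, and OAS3 and USP18 overlapped parent, where 32.1% of the tested genes lay above and 32.7% below. Nothing is read from these counts either, since the members were selected on them.

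The siRNAs were next compared with each other. This comparison used no parent library, but it used the siRNA libraries on which the members were selected and is not independent of that selection. With limma on log2(FPKM + 1) over the 12203 genes and a threshold of 0.05 for the Benjamini-Hochberg adjusted p-value, 5 of the 9 members differed, all 5 of them lower with siLINC01534-1. The background was 41.8% of the tested genes called in either direction, 22.3% lower and 19.5% higher with siLINC01534-1, and nothing particular to the members is read from their count. All 9 members had no overlap between the siRNAs, a pattern seen in 36.5% of the tested genes in the higher and 36.9% in the lower direction. The median difference of the 9 was -0.33 on the log2 scale, against 0.00024 over all tested genes.

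USP18 differed most, by -1.04 ± 0.108 (siLINC01534-1 minus siLINC01534-2, log2, SE, limma adjusted p = 0.0014), a 2.59-fold higher mean FPKM with siLINC01534-2. ISG15 differed by -0.43 ± 0.047 (limma adjusted p = 0.0017) and OAS3 by -0.41 ± 0.060 (limma adjusted p = 0.0045), each 1.35-fold higher in mean FPKM with siLINC01534-2. For IRF1 the difference was -0.38 ± 0.065 (limma adjusted p = 0.0070). OASL differed by -0.33 ± 0.098 (limma adjusted p = 0.043), and this call was lost when any of the 4 siRNA libraries was left out, with an adjusted p between 0.068 and 0.113.

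The sensors and the IFIT genes had the opposite sign and were not past the threshold. IFIT2 was 0.43 higher with siLINC01534-1 (95% interval 0.0063 to 0.85, limma adjusted p = 0.094), with an adjusted p of 0.028 without parent replicate 1 and 0.027 without parent replicate 2. IFIH1 was 0.34 higher with siLINC01534-1 (95% interval -0.05 to 0.72, limma adjusted p = 0.14). The intervals were -0.12 to 0.45 for IFIT3 (limma adjusted p = 0.29) and -0.084 to 0.29 for DDX58 (limma adjusted p = 0.32). These intervals are on the log2 scale and leave room for differences in either direction for IFIH1, IFIT3 and DDX58.

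**Figure D3:**
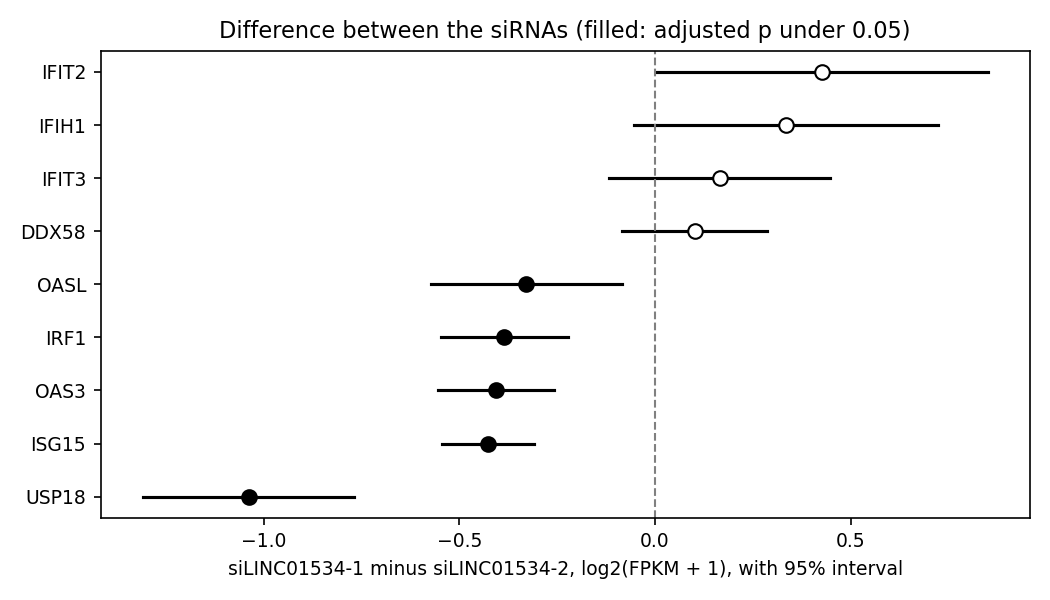
Difference between siLINC01534-1 and siLINC01534-2 on the log2(FPKM + 1) scale for the 9 members (points, n = 2 libraries a group) with 95% intervals from limma (lines). OASL, IRF1, OAS3, ISG15 and USP18 (filled points, adjusted p under 0.05) are lower with siLINC01534-1, and the open points of IFIT2, IFIH1, IFIT3 and DDX58 lie on the other side of 0. The members were selected using these siRNA libraries.

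The seed of an siRNA, positions 2 to 8 of its antisense strand, can pair with the 3′ UTR of other mRNAs. The match to the seed of siLINC01534-1, GAATAAA, was found once in the canonical 3′ UTR of 2 of the 9 members, USP18 and OASL, and in 2935 of 11126 tested genes (26.4%). The match to the seed of siLINC01534-2, TTCGAGT, was found in 0 members and in 212 tested genes (1.91%). The sites are shown on GRCh37 in the direction of the mRNA, with the seed match in capitals.
USP18: acacagtcatGAATAAAgttattttcc
OASL: agcaagttggGAATAAAtcgcctttgt
The USP18 site lies at chr22:18660132-18660158 on the plus strand, with the match beginning at position 558 of a 3′ UTR of 580 nt. That match thus falls within the last 23 nt, at the very end of the transcript. The OASL site lies at chr12:121457494-121457520 on the minus strand. Its match begins at position 854 of a 3′ UTR of 1450 nt, 597 nt from the end. With siLINC01534-1, USP18 was lower than parent in both libraries and OASL was in neither. OAS3 and ISG15, also lower with siLINC01534-1, held no match in 3′ UTRs of 3278 and 62 nt. The part of these matches in the values was not tested.

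The other genes of the pathway were taken from lists of 115 genes besides the members, of which 80 were tested. These lists were chosen with earlier results of these data known, so their counts and p-values are not independent of the data. For the average of both siRNAs against parent, 21 of the 80 (26.2%) were past the threshold, 14 higher and 7 lower. The background was 37.2% of all tested genes, 17.1% higher and 20.1% lower. With siLINC01534-1 against parent, 27 passed, 16 higher and 11 lower, where the background was 46.3% (21.8% higher, 24.5% lower). With siLINC01534-2 against parent, 23 passed, 16 higher and 7 lower, where the background was 22.8% (11.1% higher, 11.8% lower). The 2 parent libraries served both. The median of the 80 for the mean of both siRNAs was 0.054 on the log2 scale. Shares of all tested genes were computed for the main fit only, so the counts that follow have no background beside them. The count for the mean fell to 4 with the 4 siLINC01534 libraries fitted as 1 group, to 13 without parent replicate 1 and to 12 without parent replicate 2.

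Of the 8 other sensors and sensor cofactors tested, 1 was past the threshold for the mean (12.5%, against 37.2% of all tested genes). This was DHX9, a helicase that unwinds RNA duplexes, and it fell. DHX9 was at 158.1 and 155.1 FPKM in parent cells, 119.7 and 120.9 with siLINC01534-1, and 126.9 and 127.7 with siLINC01534-2 (log2 difference of the mean -0.34 ± 0.026, SE, limma adjusted p = 0.00076). EIF2AK2, which encodes the kinase PKR, had a difference of -0.08 (limma adjusted p = 0.18) for the mean and fell with siLINC01534-1 by 0.18 (limma adjusted p = 0.026). TLR3, the endosomal sensor of double-stranded RNA, lay 0.20 above parent without passing (limma adjusted p = 0.28). DHX58, which encodes the third RIG-I-like receptor, LGP2, stayed between 0.123 and 0.280 FPKM and was not tested.

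Among the 14 adaptors and kinases below the sensors, 2 rose and 1 fell for the mean (21.4% called, against 37.2% of all tested genes). TICAM1, the adaptor of TLR3, rose by 0.47 (limma adjusted p = 0.0013), from 12.9 and 12.1 FPKM in parent to between 15.7 and 19.8 in the siRNA libraries. IKBKB and CHUK encode the kinases of the NF-kB pathway, and IKBKB rose by 0.25 (limma adjusted p = 0.024) while CHUK fell by 0.31 (limma adjusted p = 0.0064). Both of these rested on siLINC01534-1, with 0.52 and -0.59 there against -0.03 and -0.03 with siLINC01534-2. MAVS, the adaptor of MDA5 and RIG-I, was at 25.4 and 25.4 FPKM in parent cells, 25.9 and 27.2 with siLINC01534-1, and 20.8 and 21.4 with siLINC01534-2. It did not pass for the mean (-0.10, limma adjusted p = 0.10) but fell by 0.25 with siLINC01534-2 (limma adjusted p = 0.015).

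The 9 interferon genes on the list were at or near 0, and none reached 1 FPKM in any library. IFNB1 and 4 others were listed at 0 in all libraries. The highest value was that of IFNE, at 0.156 and 0.078 FPKM in parent cells, 0.443 and 0.466 with siLINC01534-1, and 0.362 and 0.302 with siLINC01534-2, an estimated 1 to 5 reads. IFNL1 was listed at 0 except with siLINC01534-2, at 0.177 and 0.295 FPKM, about 1 read each. IFNE and IFNL1 were picked after their values were seen. All 4 siRNA libraries lay above both parent libraries in IFNE, but no interferon gene was tested, and at these few reads the values do not settle whether any of them differed.

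All 9 genes of the interferon receptors and their JAK kinases were tested, and 3 rose for the mean with 0 lower. These made up 33.3% of the list, against 37.2% of all tested genes called in either direction. IFNGR1, a chain of the interferon gamma receptor, rose by 0.32 (limma adjusted p = 0.0026) and JAK1, the kinase shared by these receptors, by 0.24 (limma adjusted p = 0.0049). IFNGR2 passed for the mean (0.22, limma adjusted p = 0.044), with 0.45 under siLINC01534-2 and -0.02 under siLINC01534-1. Of the 9 other IRF and STAT genes, 1 passed for the mean (11.1%, against 37.2% of all tested genes). This was STAT3, which rose by 0.38 (limma adjusted p = 0.0018). With siLINC01534-1 against parent, 3 of the 9 passed (33.3%, against 46.3% of all tested genes). STAT2 differed by 0.11 (limma adjusted p = 0.17), IRF3 by -0.07 (limma adjusted p = 0.45), IRF7 by -0.02 (limma adjusted p = 0.95) and IRF9 by 0.05 (limma adjusted p = 0.70) for the mean, and none of these passed.

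Of the 3 other IFIT genes only IFIT5 was tested, and it rose by 0.22 for the mean (limma adjusted p = 0.028), with 0.47 under siLINC01534-1 and -0.03 under siLINC01534-2. IFIT1, picked after its values were seen because it is the best known of the family, stayed near 1 FPKM, at 0.592 and 0.784 in parent cells, 1.02 and 1.06 with siLINC01534-1, and 0.879 and 1.12 with siLINC01534-2. In the OAS and RNase L list, ABCE1, which encodes an inhibitor of RNase L and a factor of ribosome recycling, fell by 0.71 (limma adjusted p = 0.00031). ABCE1 was at 95.5 and 90.1 FPKM in parent cells, 39.4 and 38.5 with siLINC01534-1, and 82.9 and 79.5 with siLINC01534-2, and most of the decrease was in the siLINC01534-1 libraries (-1.23 against -0.19). UBE2L6, the conjugating enzyme of ISG15, passed for the mean (-0.31, limma adjusted p = 0.042), with -0.65 under siLINC01534-1 and 0.04 under siLINC01534-2. It shared with USP18 and ISG15 the lower level with siLINC01534-1, at 14.9 and 16.3 FPKM in parent and 8.95 and 10.2 with siLINC01534-1. This pattern was shown by 38.3% of the tested genes. Of the 3 other ISG15 conjugation genes tested, UBE2L6 was the 1 that passed with siLINC01534-1.

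Among 38 other interferon-stimulated genes, 21 were tested, of which 4 rose and 1 fell for the mean. This was 23.8% of those tested, against 37.2% of all tested genes. ISG20, an exonuclease that degrades single-stranded RNA, rose most of all the listed genes. It was at 0.859 and 0.575 FPKM in parent cells, 4.20 and 3.80 with siLINC01534-1, and 3.81 and 3.87 with siLINC01534-2, a 5.47-fold higher mean (log2 difference 1.52 ± 0.099, SE, limma adjusted p = 0.000495). The parent values of ISG20 rest on an estimated 12 and 7 reads. Its ratio of both siRNAs to parent was 6.82 without parent replicate 1 and 4.56 without parent replicate 2. All 4 siRNA libraries were at similar levels, and the siRNAs differed by 0.05 (95% interval -0.24 to 0.33). TRIM5, a restriction factor of retroviruses, rose by 0.55 (limma adjusted p = 0.0057), PARP14 by 0.46 (limma adjusted p = 0.0023) and SP100 by 0.33 (limma adjusted p = 0.012). SP100 passed with siLINC01534-2 (0.53, limma adjusted p = 0.0074) and not with siLINC01534-1 (0.12, limma adjusted p = 0.21). IFITM2, which hinders the entry of viruses, fell by 0.25 (limma adjusted p = 0.011). TRIM21 was the gene past the threshold with both siRNAs in opposite directions, at -0.24 and 0.23, and was picked for that after its values were seen. The 17 genes left untested included MX1, at 0.167 to 0.377 FPKM, RSAD2, at up to 0.089, and CXCL10, at up to 0.114, which were chosen after their values were seen as familiar interferon-stimulated genes.

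The negative regulators held 5 of 12 genes past the threshold for the mean (41.7%), 3 higher and 2 lower. The share over all tested genes was 37.2%. SOCS1, which blocks JAK kinases, was at 1.27 and 1.67 FPKM in parent cells, 3.23 and 1.95 with siLINC01534-1, and 5.0 and 5.88 with siLINC01534-2. It rose by 0.95 for the mean (limma adjusted p = 0.0098), but with siLINC01534-1 the difference of 0.52 did not pass (limma adjusted p = 0.079), and the call for the mean was lost without either parent library (adjusted p of 0.076 and 0.050). TNFAIP3 and CYLD, deubiquitinases that restrain NF-kB and sensor signaling, rose by 0.80 and 0.73 (limma adjusted p = 0.0023 and 0.0024). CYLD was at 1.81 and 1.93 FPKM in parent and between 3.43 and 4.01 in the siRNA libraries. PIAS1, an inhibitor of STAT factors, fell by 0.23 (limma adjusted p = 0.018), and ADAR, which edits double-stranded RNA so that MDA5 does not bind it, fell by 0.13 (limma adjusted p = 0.034). PIAS1 passed with siLINC01534-1 (-0.37, limma adjusted p = 0.0048) and not with siLINC01534-2 (-0.10, limma adjusted p = 0.28). ADAR passed with siLINC01534-2 (-0.15, limma adjusted p = 0.046) and not with siLINC01534-1 (-0.11, limma adjusted p = 0.076).

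**Figure D4:**
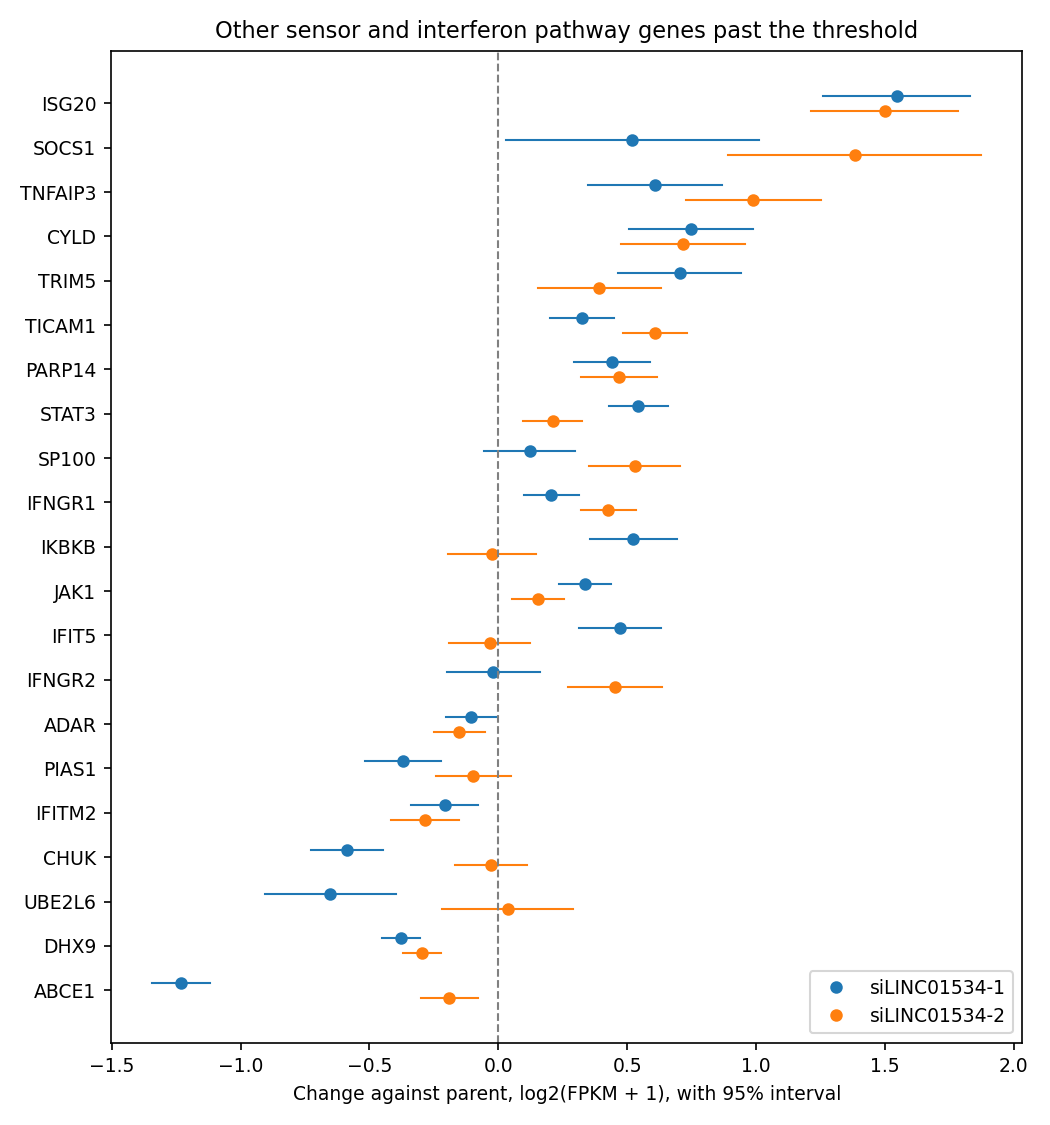
Change against parent on the log2(FPKM + 1) scale for the 21 pathway genes other than members that were called for the siRNA mean, with 1 point for each siRNA (n = 2 libraries a group) and 95% intervals from limma. ISG20, CYLD and PARP14 lie at nearly the same value with both siRNAs, while ABCE1, UBE2L6, CHUK, IKBKB, IFIT5 and PIAS1 moved away from 0 mainly with siLINC01534-1. SP100 and IFNGR2 did so mainly with siLINC01534-2.

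The genes outside the lists whose pattern over the 6 libraries was most like that of IFIH1 were PHF14, SEL1L3 and ORMDL1, with a Pearson r of 0.995, 0.994 and 0.994 on log2(FPKM + 1). For OAS3 they were AKIP1, PHF19 and TNS1, with an r of 0.998, 0.997 and 0.997. Such values were common, as 160 genes outside the lists had an r above 0.95 with IFIH1 and 630 with OAS3. These are correlations over 6 libraries in 3 groups, given as a description, and the points share their libraries and depth.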

How the data were processed

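Total RNA was extracted from HCT116 cells (the labels name the RNeasy Mini Kit, the study's methods the miRNeasy Mini Kit), and the authors prepared TruSeq stranded mRNA libraries and sequenced 75-base single-end reads. Per the submitters' processing notes and the methods, TopHat2 2.0.13 with Bowtie2 2.2.3 and SAMtools 0.1.19 mapped reads to hg19, and Cuffnorm 2.2.1 gave the deposited FPKM, 1 value per gene symbol and library, normalized by the authors for transcript length and library size. The annotation is not given in the sources used here. The labels give 2 libraries a group and the methods triplicate cultures.

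From these FPKM, log2(FPKM + 1) was computed for genes whose FPKM averaged 1 or more over the 6 libraries. Moderated linear models were fitted in limma 3.58.1 (R 4.3.3) with 1 mean per group over all libraries and a trended prior variance, two-sided, with Benjamini-Hochberg adjustment over all 12203 genes and a threshold of 0.05. The fit was tested on simulated data. Ratios are of arithmetic mean FPKM without a pseudocount, and the pseudocount of 1 understates the log2 change of low genes. The members and gene lists were chosen with earlier results of these data known. Named were the members, 9 further genes of the sensing and interferon pathway whatever their values (1 more is not reported here), and every list gene called for the average of both siRNAs. IFNE, IFNL1, IFIT1, TRIM21, MX1, RSAD2 and CXCL10 fall outside this rule and were picked after their values were seen. Depth was estimated by taking the lowest FPKM of genes with 1 transcript as 1 read, with 200 nt taken off the transcript length, and this gives estimates, not counts. Positions, overlaps, shared 75-base stretches and 3′ UTRs came from the GENCODE annotation of GRCh37, which matched 23771 of the 26255 symbols, and promoters from RefSeq (GRCh38.p14). Seeds came from the siRNA sequences in the study's methods. The motifs were chosen after promoter sequences were seen. Alternatives were a pseudocount of 0.1, no filter, median-ratio scaling, a replicate block, the 4 siLINC01534 libraries as 1 group, and leaving out each library.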

Additional observations from a re-analysis of the deposited data

Results flagged for a closer look

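The effects of the siRNAs differed from each other, by the limma contrast between them, for 5 members and 19 other named genes. The members were selected using these siRNA libraries, so for them this contrast is not independent of that selection. The values are siLINC01534-1 minus siLINC01534-2 on the log2(FPKM + 1) scale, each with an adjusted p under 0.05. Among the members, lower values with siLINC01534-1 were found for USP18 (-1.04), ISG15 (-0.43), OAS3 (-0.41), IRF1 (-0.38) and OASL (-0.33).

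Among the other genes, ABCE1 (-1.04), SOCS1 (-0.86), IRF7 (-0.78) and UBE2L6 (-0.69) differed most in this direction, followed by CHUK (-0.56), IFNGR2 (-0.47), SP100 (-0.41), IRF3 (-0.40) and TNFAIP3 (-0.38). Smaller differences were those of TICAM1 (-0.28), PIAS1 (-0.27), IFNGR1 (-0.22) and EIF2AK2 (-0.20). Higher values with siLINC01534-1 were found for IKBKB (0.55), IFIT5 (0.51), STAT3 (0.33), MAVS (0.32), TRIM5 (0.31) and JAK1 (0.18). Most of these other genes were named because they passed for the mean of both siRNAs in the same fit, so nothing is read from their count. Of all 80 pathway genes other than members, 32 (40%) passed for this contrast, 21 lower and 11 higher with siLINC01534-1. The background for this contrast was 41.8% of all tested genes. With 2 libraries a group, single libraries were not tested as outliers.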

How the results depend on the processing

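With 2 libraries a group the spread was shared across groups, and where a group was left with 1 library it was assumed to vary like the others. Shares of all tested genes were computed for the main fit only. A changed count below is therefore not read as particular to these genes. The files carry no counts, and IFIT2, IFIT3, ISG20 and SOCS1 rest on few estimated reads. For the 80 pathway genes other than members, the count called for the average of both siRNAs, 21, became 4 (3 higher, 1 lower) with the 4 siLINC01534 libraries as 1 group and ranged from 12 to 18 when 1 library was left out (13 without parent replicate 1, 12 without parent replicate 2). For siLINC01534-1 the count of 27 ranged from 17 (without siLINC01534-1 replicate 1) to 26. For siLINC01534-2 the count of 23 became 15 without the filter on low values and ranged from 7 (without parent replicate 1) to 15. It was 9 without parent replicate 2, 15 without either siLINC01534-1 library, and 11 and 9 without siLINC01534-2 replicate 1 and 2. Of the 21 genes, ISG20, CYLD, PARP14 and DHX9 stayed past the threshold under every alternative run.

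The count of members that differed between the siRNAs, 5, ranged from 4 to 6 when 1 library was left out, and OASL was lost with a pseudocount of 0.1 (adjusted p = 0.055). The members' median against parent, 0.28, ranged from 0.22 to 0.29 in the same way. No call of a single gene reversed, but the uncalled difference of IRF7 (-0.02 for the mean) ranged from -0.28 without parent replicate 1 to 0.24 without parent replicate 2, and was 0.017 without siLINC01534-1 replicate 2 and 0.035 without siLINC01534-2 replicate 1, and that of IRF9 (0.05) ranged from -0.049 without parent replicate 1 to 0.14 without parent replicate 2. The cause of these changes was not tested.

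The labels do not say whether the replicate numbers pair the libraries, and the main fit used no pairing. Deviations of same-numbered libraries correlated across genes at 0.11, 0.027 and -0.046, which with 2 libraries a group does not settle the question. With a replicate block, 20 pathway genes passed for the mean, 24 with siLINC01534-1 and 15 with siLINC01534-2, and 4 members differed between the siRNAs, with OASL lost (adjusted p = 0.080).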
